A study of Mus musculus with 10 samples.

Results

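The genes examined were 10 components of roof plate and bone morphogenetic protein (BMP) signalling, read out of the 54146 gene rows counted in lumbar spinal cord at E12.5. They were chosen by name: the roof plate factor *Lmx1a*, the ligands *Gdf7*, *Bmp4*, *Bmp5*, *Bmp6* and *Bmp7*, the type I receptors *Bmpr1a* and *Bmpr1b*, and the target genes *Id1* and *Id3*. The comparison was between 5 control and 5 *Dot1l*-cKO embryos. In the *Dot1l*-cKO (Wnt1cre2/+; *Dot1l* fl/fl), cre driven by *Wnt1* sequences, active mainly in the dorsal neural tube and neural crest, removes floxed *Dot1l*, the gene of the H3K79 methyltransferase. Litter 1 gave 3 embryos of each genotype, with +/+; *Dot1l* fl/fl controls. Litter 2 gave 2 of each, with +/+; *Dot1l* fl/+ controls. B6.Cg-E2f1Tg(Wnt1-cre)2Sor/J is given as the background of all embryos, and no control carried cre. The question was whether ligands, receptors and targets differed together between genotypes within litter.

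The roof plate is the signalling centre at the dorsal midline of the neural tube. Under the control of LIM homeodomain factors such as LMX1A it secretes BMP and WNT proteins, which pattern the dorsal progenitors next to it. BMP and GDF ligands bind type I and type II receptor kinases, which phosphorylate SMAD1, SMAD5 and SMAD9. With SMAD4 these activate target genes, among which the Id genes, whose products hold back bHLH transcription factors, are the most widely used readouts of the pathway.

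Total counts were 40949585 to 61194291 in controls and 54870771 to 68928443 in *Dot1l*-cKO embryos. Counts over the whole *Dot1l* gene were not lower in the embryos labelled *Dot1l*-cKO, at 97.8 to 112 CPM (read counts scaled to the library size with TMM factors) against 87.6 to 107 CPM in controls (log2 fold change 0.17, SE 0.06, adjusted p = 0.130 by edgeR). These counts include exons outside the floxed part, so they do not check the deletion. Both *Dot1l*-cKO embryos of litter 2 had *Xist* at 6.00 and 6.79 CPM and summed Y-linked genes at 172 and 156 CPM, whereas the other 8 embryos had *Xist* at 499 CPM or more and Y-linked genes at 1.16 CPM or less. Sex and genotype therefore cannot be told apart in litter 2, and values are given for each litter. The sum of 9 dorsal root ganglion neuron genes was 211 to 618 CPM over the embryos, so the samples may include ganglion tissue. In bulk RNA fewer cells of a type and less RNA per cell cannot be told apart.

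Per length of exon, *Id3* was the most abundant of the 10 genes, at a mean level of 36.3 ± 10.6 RPKM (CPM per kilobase of exon, mean ± SD, n = 10 embryos). *Bmpr1a* (16.7 ± 1.74) and *Id1* (16.4 ± 6.68) came next, followed by *Bmp7* (7.39 ± 0.815), *Bmpr1b* (4.69 ± 1.6), *Bmp4* (2.62 ± 0.645), *Bmp6* (1.70 ± 0.389) and *Bmp5* (0.923 ± 0.264). The genes that mark the roof plate itself were lowest, with *Lmx1a* at 0.656 ± 0.224 RPKM and *Gdf7* at 0.190 ± 0.131 RPKM. In this order only *Id3* and *Bmpr1a*, and *Id1* and *Bmp7*, were separated without overlap between neighbours over the 10 embryos. Among the ligands, *Bmp7* was the highest in every embryo.

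*Gdf7* (ENSMUSG00000037660) lies on the minus strand at chr12:8297918-8301954 and *Bmp4* (ENSMUSG00000021835) on the minus strand at chr14:46383520-46390669 in GRCm38, the build of the counts. Their start regions are shown because these were the ligands with the largest and the smallest genotype difference. The 250 bases upstream of the RefSeq start (GRCm38.p6), at chr12:8301955-8302204 and chr14:46390670-46390919 and free of annotated exons, read 5′ to 3′ on the strand of the gene, with CG dinucleotides in capitals:
Gdf7: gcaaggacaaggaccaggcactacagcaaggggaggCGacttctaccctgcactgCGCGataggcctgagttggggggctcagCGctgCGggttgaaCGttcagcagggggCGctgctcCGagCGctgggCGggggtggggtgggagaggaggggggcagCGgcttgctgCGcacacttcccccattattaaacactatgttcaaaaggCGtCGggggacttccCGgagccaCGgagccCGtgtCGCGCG
Bmp4: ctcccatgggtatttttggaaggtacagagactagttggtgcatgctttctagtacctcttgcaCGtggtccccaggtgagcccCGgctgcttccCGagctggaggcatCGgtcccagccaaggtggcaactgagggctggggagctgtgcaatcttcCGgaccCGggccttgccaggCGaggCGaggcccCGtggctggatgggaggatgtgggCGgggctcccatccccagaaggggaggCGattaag
The *Gdf7* window held 20 CG dinucleotides and 66.0% G and C, the *Bmp4* window 11 and 63.2%, against a median of 6 and 52.4% over 32851 promoters of the same length. Neither held GGCGCC, a SMAD-binding motif of BMP target genes present in 9.59% of all promoters, CAGAC, the other SMAD-binding motif (either strand, 42.2%), or TATAAA (either strand, 12.4%). Of the 10 genes 8 had an entry in this table. Among them GGCGCC was found once, in the window of *Bmpr1a*, and CAGAC in those of *Id3* (2 matches), *Bmp5*, *Bmp6* and 2 of the 3 starts of *Bmpr1b*. GENCODE annotates starts further upstream for some of these genes, so that all 250 bases of the *Id3* and *Bmp6* windows and 141 of the *Bmpr1a* window lie in annotated exons.

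**Figure D1:**
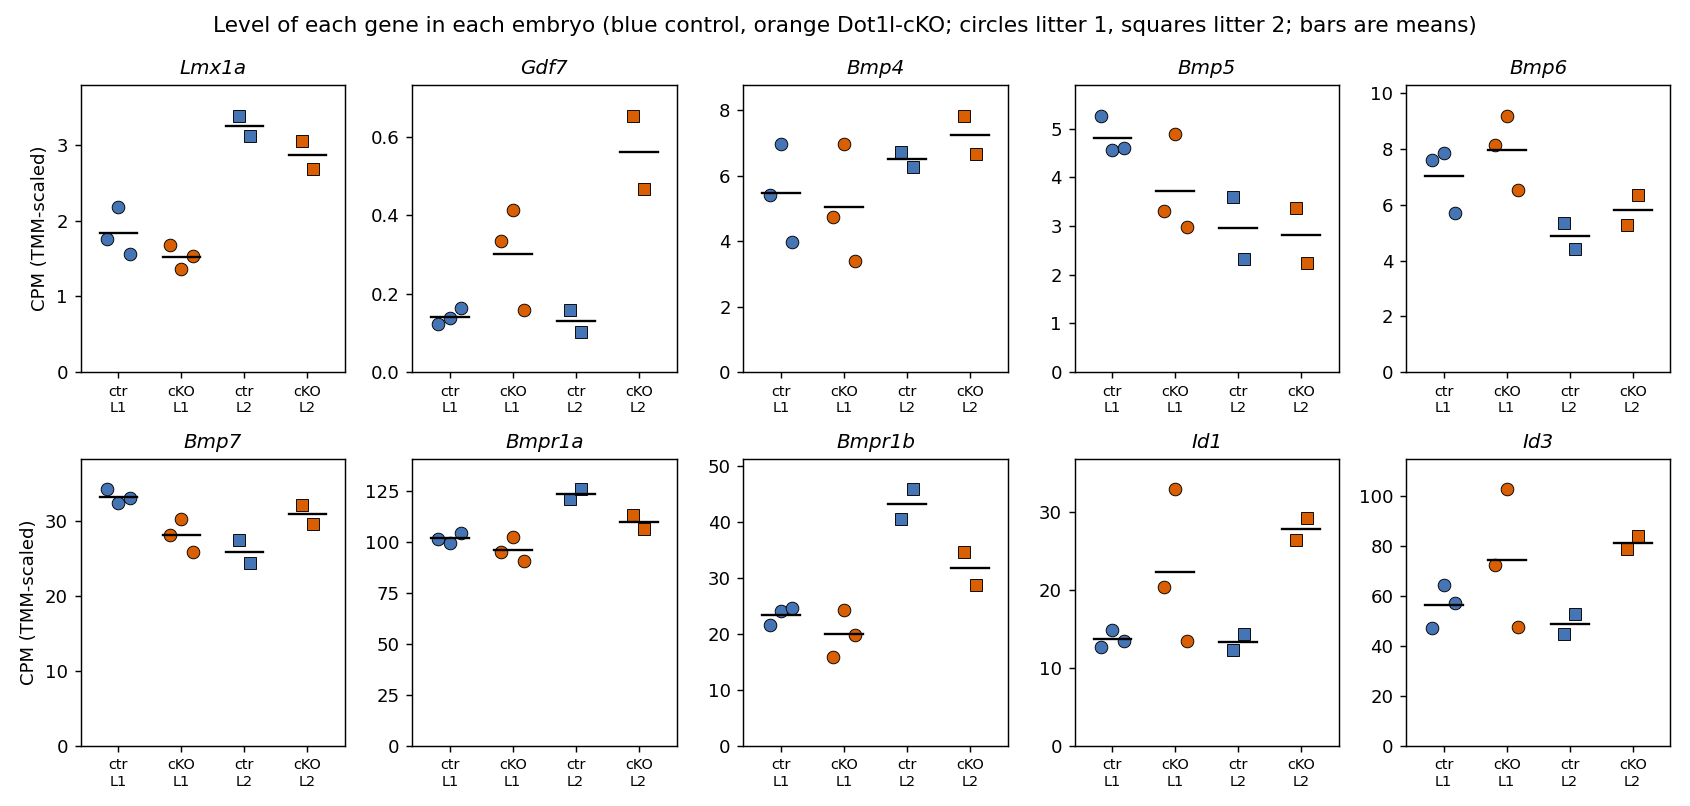
Each point is 1 embryo and each panel 1 gene, with the level in TMM-scaled CPM on a linear axis from 0; blue are controls, orange *Dot1l*-cKO, circles litter 1, squares litter 2, and bars are group means. *Id1*, *Id3* and *Gdf7* share a pattern in which 4 of the 5 *Dot1l*-cKO embryos lie above all controls and 1 embryo of litter 1 lies among them.

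Of the 10 genes only *Id1* passed the test between genotypes over both litters (edgeR, with the litter in the model, p adjusted over all genes tested and called when under 0.05), and it was higher in *Dot1l*-cKO. Among all 19773 genes tested 2.99% passed, 1.9% higher and 1.09% lower in *Dot1l*-cKO. Log2 fold changes were positive for 4 of the 10 genes and negative for 6, with a median of -0.03 against -0.01 over all genes tested. Unadjusted p was under 0.05 for 5 of them.

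Among the 10 genes, *Id1* and *Id3* are the readouts of the pathway. *Id1* (chr2:152736251-152737410, plus strand) was at 12.7, 14.9 and 13.5 CPM in the controls of litter 1 and at 20.4, 33.0 and 13.5 CPM in their *Dot1l*-cKO littermates. In litter 2 it was at 12.3 and 14.4 CPM in controls and at 26.4 and 29.3 CPM in *Dot1l*-cKO. Thus 4 of the 5 *Dot1l*-cKO embryos were above every control, while embryo 7 of litter 1 was level with them. Over both litters *Id1* rose from 13.6 ± 1.08 to 24.5 ± 7.69 CPM (mean ± SD, n = 5 each), a log2 fold change of 0.84 (SE 0.18, adjusted p = 0.0313 by edgeR's quasi-likelihood test) or 1.80-fold. Within litter 1 the log2 fold change was 0.71 (SE 0.25, adjusted p = 0.243) and within litter 2 it was 1.07 (SE 0.11, adjusted p = 0.000246), and these did not pass a test for a difference between the litters (adjusted p = 0.797). The call held in 4 of the 10 fits that left out 1 embryo each. In the other 6 the log2 fold change was 0.78 to 0.90, and 53 to 171 genes were called in all. Of 12 other fits over all embryos 8 called *Id1*, and it was not called with limma-voom (0.78, adjusted p = 0.0576), the robust edgeR fit (0.84, 0.0853), no litter term (0.85, 0.318) or the GC covariate described further on.

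*Id3* (chr4:136143497-136145755, plus strand) is a paralogue of *Id1* with the same kind of product. In litter 1 it was at 46.9, 64.5 and 56.9 CPM in controls and at 72.5, 102.5 and 47.6 CPM in *Dot1l*-cKO. In litter 2 controls had 44.8 and 52.7 CPM and *Dot1l*-cKO embryos 78.6 and 83.7 CPM. As for *Id1*, embryo 7 of litter 1 lay within the control range and the other 4 *Dot1l*-cKO embryos above it. The means of 53.2 ± 7.93 and 77.0 ± 19.9 CPM gave a log2 fold change of 0.54 (SE 0.16), which did not pass (adjusted p = 0.0757 by edgeR). In litter 2 alone *Id3* rose by a log2 fold change of 0.74 (SE 0.08, adjusted p = 0.000515), and in litter 1 alone the value was 0.41 (SE 0.23, adjusted p = 0.455). Leaving out embryo 7 of litter 1, the *Dot1l*-cKO embryo level with the controls, raised the log2 fold changes to 1.01 for *Id1* (adjusted p = 0.000712 by edgeR) and 0.68 for *Id3* (0.00262), with 1377 genes called in all in place of 591. Leaving out embryo 3 of litter 1, the highest *Dot1l*-cKO embryo for both genes, lowered them to 0.65 (0.0410) and 0.39 (0.154). Both embryos were singled out by their values for these genes, so neither fit is support for the difference.

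*Gdf7*, a ligand whose transcription in the neural tube marks the roof plate, had the largest fold change and the lowest level of the 10 genes. In litter 1 it was at 0.123, 0.138 and 0.164 CPM in controls and at 0.333, 0.412 and 0.157 CPM in *Dot1l*-cKO. In litter 2 the controls had 0.159 and 0.101 CPM and the *Dot1l*-cKO embryos 0.653 and 0.466 CPM. Again embryo 7 of litter 1 fell among the controls and the other 4 above them. These levels stood for 4 to 10 reads per control and 11 to 37 reads per *Dot1l*-cKO embryo, and *Gdf7* passed the filter on low counts only through the *Dot1l*-cKO embryos. The log2 fold change was 1.46 (SE 0.37, adjusted p = 0.0506 by edgeR) and did not pass. Its adjusted p was 0.0122 to 0.123 in the 10 fits that left out 1 embryo each and 0.00736 to 0.483 in 10 other fits over all embryos. Because the filter admitted *Gdf7* through the group in which it is high, these p-values are no support for the difference. In litter 2 alone it was 2.06 (SE 0.57, adjusted p = 0.0581), and in litter 1 alone *Gdf7* was below the filter.

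*Lmx1a*, the transcription factor that specifies the roof plate, did not share this pattern. Its level in litter 1 was 1.76, 2.18 and 1.55 CPM in controls and 1.68, 1.36 and 1.53 CPM in *Dot1l*-cKO. In litter 2 it was 3.39 and 3.11 CPM in controls and 3.05 and 2.68 CPM in *Dot1l*-cKO. The groups overlapped in litter 1, and in litter 2 both *Dot1l*-cKO embryos were lower. The log2 fold change of -0.23 (SE 0.13) did not pass (adjusted p = 0.342 by edgeR), and it was -0.25 in litter 1 and -0.18 in litter 2.

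The balance of high-GC and low-GC genes in the same libraries varied with the levels of *Id1*, *Id3* and *Gdf7*. For each embryo the median log2 CPM of 4211 genes with at least 55% GC was set against that of 5231 genes with under 45% GC, as a difference from the mean of the embryos. This GC difference was -0.02, 0.06 and -0.0028 in the controls of litter 1, 0.07, 0.18 and -0.05 in their *Dot1l*-cKO littermates, -0.20 and -0.20 in the controls of litter 2 and 0.04 and 0.13 in the *Dot1l*-cKO embryos of litter 2. Embryo 7 of litter 1 had the lowest value of its litter. Centred on the litter, *Id1* correlated with it at r = 0.929 (Spearman's rho 0.964) over 10 embryos, with an adjusted p = 0.00203 (0.00810 for rho) by exact permutation within litters over the 10 genes. For *Id3* r was 0.920 (rho 0.903, adjusted permutation p = 0.00203 and 0.0148), for *Gdf7* 0.881 (rho 0.891, 0.0399 and 0.0483) and for *Bmp6* 0.707 (rho 0.697, 0.0399 and 0.0483), while the other 6 genes did not pass. *Gdf7* was admitted by the filter through the *Dot1l*-cKO embryos, so its value is a description only. Centring on the litter leaves the genotype difference in all these values. Without the 2 embryos farthest from the median of the GC difference, r was 0.905 for *Id1*, 0.897 for *Id3*, 0.877 for *Gdf7* and 0.422 for *Bmp6*. Within litter 1 alone (n = 6) it was 0.940 for *Id1*, 0.985 for *Id3*, 0.818 for *Gdf7* and 0.777 for *Bmp6*, the last with an unadjusted exact permutation p = 0.0708. The GC content of the gene itself was 70.6% for *Gdf7*, 57.8% for *Bmp6*, 55.6% for *Id3*, 55.3% for *Bmp7* and 54.7% for *Id1*, and 40.5% to 52.5% for the other 5 genes. *Bmp7*, with a GC content like that of *Id1* and *Id3*, had r = 0.459 with the GC difference (adjusted permutation p = 0.294).

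The log2 fold changes of these genes differed between the corrections tried for GC content. With the GC difference of each embryo as a covariate, a choice made after seeing the data, the log2 fold change was 0.29 for *Id1* (adjusted p = 0.364 by edgeR), 0.05 for *Id3* (0.903) and 0.79 for *Gdf7* (0.483), and 97 genes were called in all. With an offset that removed the dependence on GC content gene by gene in each embryo, *Id1* kept a log2 fold change of 0.80 (adjusted p = 0.0304 by edgeR). *Id3* had 0.48 (0.0912) and *Gdf7* 0.95 (0.134), and 384 genes were called. With this offset *Bmp6* had 0.10 (adjusted p = 0.652 by edgeR), *Bmpr1a* -0.07 (0.387) and *Bmpr1b* -0.27 (0.148). Whether the GC difference arose in the libraries or in the tissue was not tested.

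**Figure D2:**
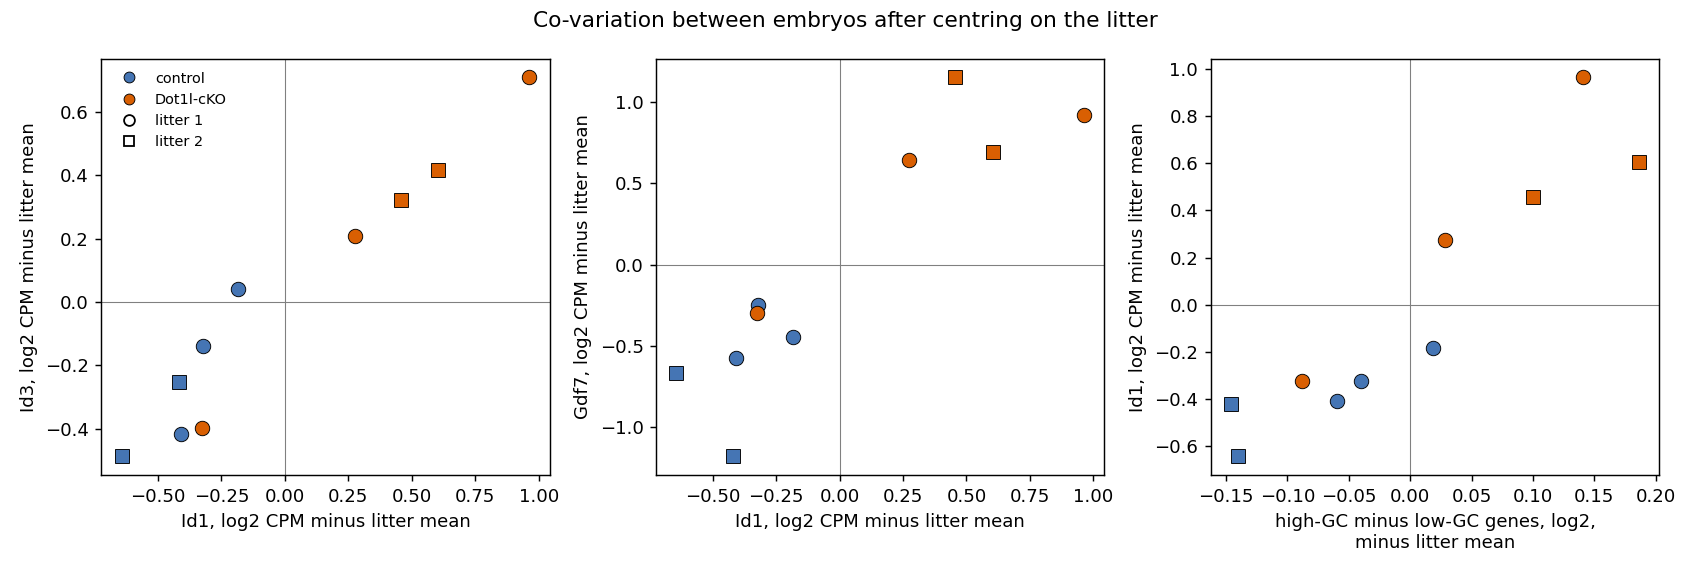
Levels of *Id3* and *Gdf7* against *Id1* (left and middle, log2 CPM minus the litter mean) and of *Id1* against the difference between genes of high and low GC content (right, log2, minus the litter mean), with 1 point per embryo; blue are controls, orange *Dot1l*-cKO, circles litter 1, squares litter 2. The points rise together in all 3 panels, with r = 0.971 and 0.903 for the gene pairs and 0.929 for the GC difference.

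The other 4 ligands showed no common direction between genotypes. *Bmp7*, an early roof plate ligand that is also made widely in meninges and mesenchyme, was at 34.1, 32.4 and 33.0 CPM in the controls of litter 1 and lower in all 3 *Dot1l*-cKO littermates, at 28.0, 30.3 and 25.8 CPM. In litter 2 the order was the opposite, with 27.4 and 24.3 CPM in controls and 32.1 and 29.5 CPM in *Dot1l*-cKO. The log2 fold changes of -0.24 (SE 0.08, adjusted p = 0.216 by edgeR) and 0.26 (SE 0.09, adjusted p = 0.140) differed by 0.50 (SE 0.12), which had an unadjusted p = 0.00137 but an adjusted p = 0.341, where 0.00978% of 20446 genes passed. Over both litters the value for *Bmp7* was -0.05 (SE 0.09, adjusted p = 0.799). In the same samples the summed level of 13 mesenchyme and meninges genes went the same way as *Bmp7*, at 1820 to 2345 CPM in controls and 1254 to 2048 CPM in *Dot1l*-cKO of litter 1, and at 1313 to 1467 CPM and 1593 to 1772 CPM in litter 2. The mesenchyme sums overlapped in litter 1. The sums of ganglion neuron genes, given further on, turned in the same way and were separate in both litters. The part of any of these cells in the values of *Bmp7* was not tested.

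*Bmp4*, *Bmp5* and *Bmp6* overlapped between genotypes in at least 1 litter each. *Bmp4* ranged from 3.98 to 6.98 CPM in controls and from 3.41 to 7.84 CPM in *Dot1l*-cKO, with a log2 fold change of -0.0038 (SE 0.18, adjusted p = 0.994 by edgeR). *Bmp5* ranged from 2.33 to 5.27 CPM and from 2.25 to 4.89 CPM (-0.26, SE 0.17, adjusted p = 0.393). *Bmp6* ranged from 4.43 to 7.85 CPM and from 5.26 to 9.20 CPM (0.20, SE 0.12, adjusted p = 0.360). None of these differences was larger than 2 of its standard errors. *Bmp4*, *Bmp5*, *Bmp6* and *Bmpr1a* overlap annotated antisense genes, and since it is not known whether reads were counted by strand, reads from the 2 strands cannot be told apart.

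The type I receptors both had negative log2 fold changes in both litters. *Bmpr1b*, a receptor of dorsal progenitors in the early cord, was at 21.5, 24.1 and 24.6 CPM in the controls of litter 1 and at 15.8, 24.3 and 19.9 CPM in *Dot1l*-cKO. In litter 2 it was at 40.5 and 45.8 CPM in controls and at 34.7 and 28.7 CPM in *Dot1l*-cKO. One *Dot1l*-cKO embryo of litter 1 lay within the control range of that litter, and in litter 2 the groups were separate. The log2 fold change was -0.32 (SE 0.10, adjusted p = 0.0979 by edgeR) over both litters, -0.22 (SE 0.14, adjusted p = 0.510) in litter 1 and -0.44 (SE 0.10, adjusted p = 0.0270) in litter 2, where it passed. Leaving out control embryo 7 or *Dot1l*-cKO embryo 6 ended the litter 2 call of *Bmpr1b*. Such a fit has 1 embryo in 1 arm and takes the spread from the pair in the other arm and from the fit over all genes, so it says little about stability. DESeq2, the tool named in the study's methods, called it over both litters (adjusted p = 0.0371).

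*Bmpr1a*, the broadly expressed type I receptor, was at 101, 99.5 and 104 CPM in the controls and 94.9, 102 and 90.4 CPM in the *Dot1l*-cKO embryos of litter 1. In litter 2 it was at 121 and 126 CPM in controls and at 113 and 106 CPM in *Dot1l*-cKO. The groups overlapped in litter 1 by a single embryo, and in litter 2 they did not. The log2 fold change of -0.12 (SE 0.05) had an adjusted p = 0.150 by edgeR.

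**Figure D3:**
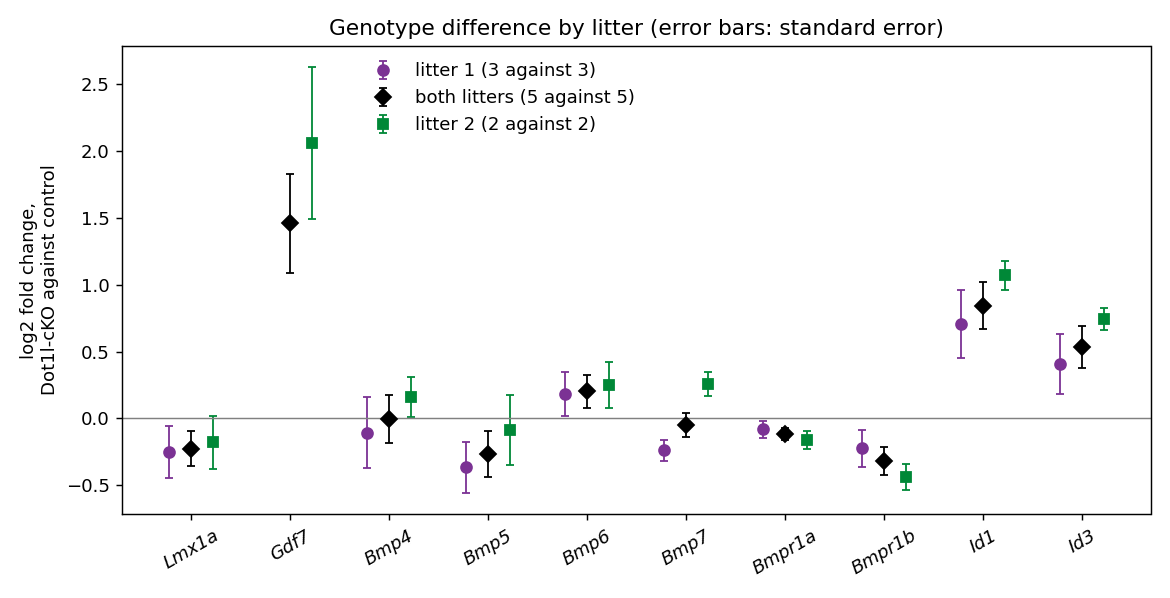
Log2 fold change of *Dot1l*-cKO against control for each gene, with the standard error as bars, for litter 1 (circles), both litters (diamonds) and litter 2 (squares); *Gdf7* was below the filter on low counts in litter 1. *Id1* and *Id3* are above 0 in both litters, both receptors are below 0 in both, and *Bmp7* lies on opposite sides of 0.

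Within single litters the counts were as follows. In litter 1 none of the 9 genes tested passed (unadjusted p was under 0.05 for *Bmp7* and *Id1*), where 0.0623% of all genes did. In litter 2, where 5.13% of all genes passed, 3 of the 10 did: *Id1* and *Id3* higher and *Bmpr1b* lower in *Dot1l*-cKO. The sign of the log2 fold change was the same in both litters for 7 of the 9 genes tested in both, against 62.1% of all genes, and the exceptions were *Bmp4* and *Bmp7*. None of the 10 genes was separated between genotypes without overlap in both litters in 1 direction, as 3.8% of all genes were with *Dot1l*-cKO higher and 4.15% with *Dot1l*-cKO lower. Over both litters the Id genes, *Gdf7* and *Bmp6* had positive values and *Lmx1a*, both receptors and the other 3 ligands negative ones, so that the 10 genes had no common direction.

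Whether the genes varied together from embryo to embryo was examined by correlation of their log2 CPM, centred on the litter, over 10 embryos and 45 pairs. By Pearson's r the only pair that passed was *Id1* and *Id3*, with r = 0.971 and rho = 0.964 (adjusted p = 0.00260 for both by two-sided exact permutation within litters). Without the 2 embryos farthest in *Id1*, r was 0.934. In litter 1 alone r was 0.955 (n = 6), with an exact permutation p of 0.00139, the smallest that 6 embryos allow. *Id1* with *Id3* was the only pair at this value and did not pass over 45 pairs (adjusted permutation p = 0.0625). For *Gdf7*, r was 0.903 with *Id1* and 0.851 with *Id3*, and neither passed (adjusted permutation p = 0.0918 for each). For the 2 receptors r was 0.840 and did not pass (adjusted permutation p = 0.0918), while rho, 0.903, did (adjusted permutation p = 0.0352). *Gdf7* and *Lmx1a*, the pair that marks the roof plate, had r = -0.504 (adjusted permutation p = 0.373). Levels centred on the litter alone still hold the genotype difference. Centred on litter and genotype, r was 0.970 for *Id1* with *Id3*, 0.698 for *Gdf7* with *Id1*, 0.705 for *Gdf7* with *Id3*, 0.636 for the receptors and -0.03 for *Gdf7* with *Lmx1a*. Other pairs turned, and 14 of the 45 had another sign than when centred on the litter alone. For *Bmpr1a* r went from -0.357 to 0.758 with *Id1* and from -0.503 to 0.725 with *Gdf7*. For *Bmp7* it went from 0.341 to 0.863 with *Gdf7* and from 0.704 to 0.957 with *Bmp5*. The latter had an adjusted p = 0.0286 by permutation within litters. Values also centred on genotype cannot be swapped freely within a litter, so this p is not exact and is no support. Within genotypes r was above 0 for 37 of the 45 pairs, against 31 when centred on the litter alone.

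Some other genes had a higher correlation with *Id1* or *Id3* than *Id1* and *Id3* had with each other. Among 13589 genes with a mean log2 CPM of at least 1, *Id3* ranked 22 by its correlation with *Id1*, behind *Csf2ra* (r = 0.991), *Mrpl34* (0.991) and *1110008P14Rik* (0.987), and *Id1* ranked 30 for *Id3*, behind *Mrps12* (0.990), *Thap7* (0.986) and *Cep131* (0.985). For *Gdf7* the closest were *Fblim1* (r = 0.985), *Arhgef19* (0.977) and *Nucb1* (0.977), with *Id1* at rank 60. For *Lmx1a* they were *Pgrmc2* (r = 0.953), *Phf13* (0.921) and *Dnajc21* (0.909). None of these 12 genes is a BMP pathway gene of the list used here. All correlations are over the same 10 libraries, centred on the litter alone, and so still hold the genotype difference.

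Several of the 10 genes also differed between the litters, which stand for all that the litters do not share. Between litters 34.7% of all genes passed, and 5 of the 10 did. *Lmx1a* was higher in litter 2 by a log2 fold change of 0.87 (SE 0.13, adjusted p = 0.000168 by edgeR), *Bmpr1b* by 0.77 (SE 0.10, adjusted p = 5.97e-05) and *Bmpr1a* by 0.23 (SE 0.05, adjusted p = 0.00126). *Bmp5* and *Bmp6* were lower in litter 2, with -0.55 (SE 0.18, adjusted p = 0.0272) and -0.48 (SE 0.13, adjusted p = 0.00838). *Id1* and *Id3*, at 0.15 and -0.03, did not pass.

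A further 66 BMP pathway genes were counted, of which 62 were tested, 33 with positive and 29 with negative log2 fold changes and a median of 0.01. Only *Bmp8a*, a BMP ligand, passed, with 1.68 (SE 0.35, adjusted p = 0.0312 by edgeR), where 2.99% of all genes did. It was at 0.105, 0.207, 0.164, 0.0597 and 0.127 CPM in controls and at 0.350, 0.430, 0.414, 0.335 and 0.582 CPM in *Dot1l*-cKO. The groups did not overlap, but the reads behind them were 3 to 10 per control and 19 to 35 per *Dot1l*-cKO embryo, so that *Bmp8a*, like *Gdf7*, passed the filter through 1 group only.

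The other genes named, by smallest p, did not pass. Among roof plate genes, *Wnt1*, the roof plate WNT ligand, had a log2 fold change of 0.61 (adjusted p = 0.0723 by edgeR) and *Msx2*, a BMP-induced homeobox gene, -0.62 (0.185). Only the *Dot1l*-cKO embryos carried the transgene with *Wnt1* sequences, and whether reads from it were counted for *Wnt1* was not tested. Among antagonists *Chrd* had 0.22 (0.0863), *Nog* 0.45 (0.147) and *Bmper* 0.24 (0.154). *Rgma*, a BMP co-receptor, had 0.29 (0.0839), *Inhbb*, an activin subunit, 0.24 (0.0962), *Acvr1b*, an activin receptor, 0.13 (0.106), *Skil*, a SMAD repressor, -0.15 (0.133), and *Smad4*, the common SMAD, -0.12 (0.175). By role, positive values were found for 6 of 7 roof plate genes, 5 of 10 ligands, 3 of 9 receptors and co-receptors, 2 of 6 SMADs, 10 of 16 antagonists and modulators, 2 of 7 intracellular inhibitors and 5 of 7 other targets. In litter 2 alone, where 5.13% of all genes passed, 6 of the 61 tested did. With 1 embryo of litter 2 left out, which leaves a lone embryo assumed to vary like the others, 2 (without *Dot1l*-cKO embryo 6) to 7 did. *Wnt1* (3.39 and 4.43 against 8.21 and 7.62 CPM, adjusted p = 0.00435 by edgeR), the BMP antagonists *Nbl1* (0.0109) and *Sostdc1* (0.0485), the modulator *Kcp* (0.0149) and *Rgma* (0.0126) rose, and *Msx2* fell (8.50 and 9.01 against 5.59 and 5.99 CPM, 0.0299). The other Id genes listed, *Id2* and *Id4*, had log2 fold changes of 0.13 (adjusted p = 0.276 by edgeR) and 0.07 (0.633) over both litters. *Id2*, *Id4*, *Nbl1*, *Sostdc1* and *Kcp* are outside the rule for named genes and were added after their values were seen.

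**Figure D4:**
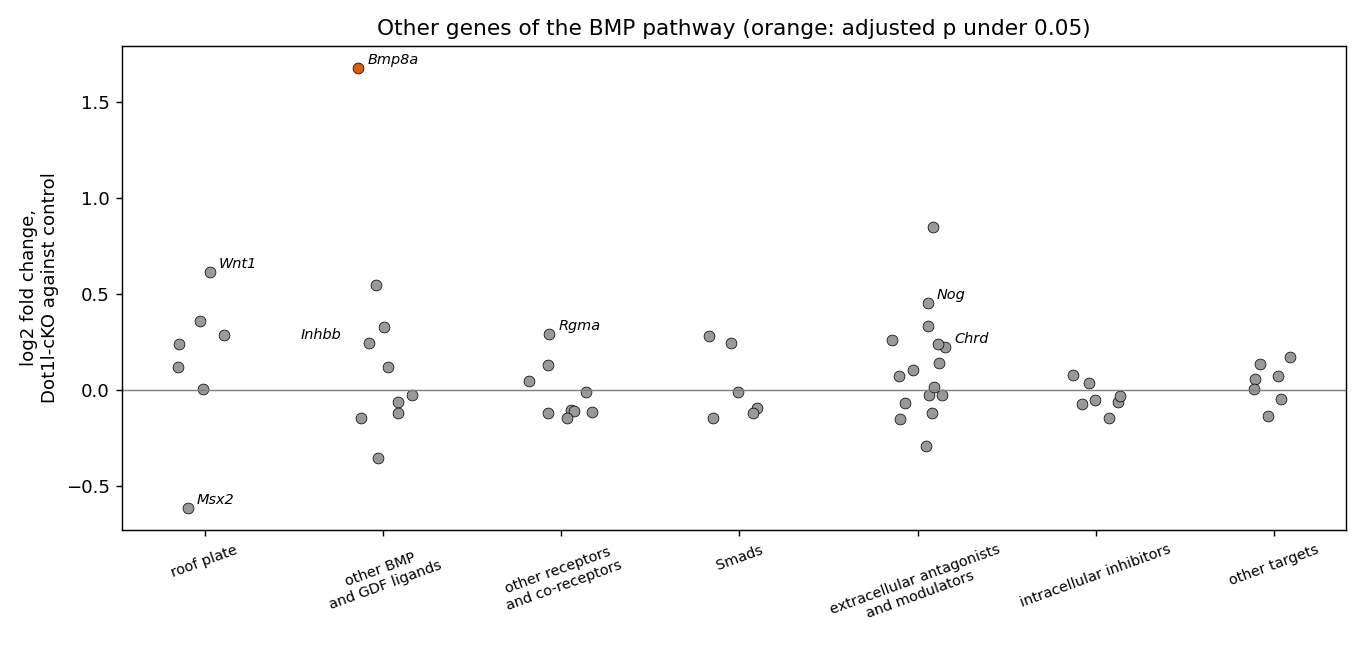
Log2 fold change of *Dot1l*-cKO against control, over both litters, for the 62 further BMP pathway genes tested, by role (points spread sideways for display). Only *Bmp8a*, in orange, has an adjusted p under 0.05, and most genes lie close to 0.

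Marker genes of other cell types that the tissue could hold were summed for each embryo. The summed level of 9 dorsal root ganglion neuron genes was 545 to 618 CPM in controls and 416 to 519 CPM in *Dot1l*-cKO of litter 1, and 211 to 223 CPM against 294 to 334 CPM in litter 2. For 10 endothelial genes, a cell type with strong BMP signalling and *Id1* expression, it was 401 to 458 against 323 to 356 CPM in litter 1 and 269 to 329 against 290 to 357 CPM in litter 2, and 0 of the 10 were called. Of 7 neural crest glia genes 1 was called, higher, with sums of 473 to 542 against 431 to 540 CPM in litter 1 and 372 to 382 against 481 to 499 CPM in litter 2. Of the ganglion neuron genes 1 was called, higher. All 7 erythroid genes had positive log2 fold changes over both litters, though 4 were negative in litter 1, and 1 was called, with sums of 799 to 884 against 751 to 821 CPM in litter 1 and 1286 to 1387 against 1581 to 1958 CPM in litter 2. In litter 2 the sums were also higher and separate for 6 pericyte genes (276 to 279 against 305 to 308 CPM) and 8 spinal neuron genes (3824 to 3894 against 3981 to 4317 CPM). With the mesenchyme genes, 6 of the 9 lists were thus separate between the genotypes in litter 2, as *Id1* was. Those of endothelium, neural progenitors and lumbar Hox genes overlapped there. In litter 1 the ganglion neuron and endothelium sums were separate with *Dot1l*-cKO lower, while the log2 fold change of *Id1* was positive. These counts of called genes stand against 2.99% of all genes tested. No gene of these lists was at 0 in all embryos, and the median log2 fold changes over both litters were 0.32 for ganglion neurons, 0.13 for glia, 0.20 for erythroid genes, -0.17 for endothelium, -0.06 for mesenchyme and -0.06 for pericytes. Their part in the values of *Id1*, *Id3* and *Gdf7* was not tested.

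*Id1* also lies 1.82 Mb from *E2f1*, the locus that the strain name gives for the Wnt1-cre transgene. Of the 45 tested genes within 1 Mb of *Id1* the median log2 fold change was 0.04, and 4 were called, all higher in *Dot1l*-cKO (*Sox12*, *Nrsn2*, *Tspyl3* and *AA387200*), where 1.9% of all genes tested were called higher. *Bmp7*, on the same chromosome, is 18.3 Mb from *E2f1*, and none of its 19 tested neighbours was called. Whether position near the transgene bears on *Id1* was not tested.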

How the data were processed

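RNA-seq of polyA RNA from the lumbar spinal cord of single embryos was used. The authors deposited raw read counts per gene, made in snakePipes from trimmed reads that STAR aligned to mm10 and featureCounts assigned to GENCODE genes; the strand setting is not given in the sources used here. Gene names, positions and GC content came from GENCODE M21 (GRCm38), in which 54079 of 54146 identifiers matched; promoters came from RefSeq. Groups and litters were taken from the sample titles and genotypes.

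The members and gene lists were chosen with earlier results of these data known. With R 4.3.3, edgeR 4.0.16 (quasi-likelihood test, defaults, TMM, default expression filter, litter in the model, Benjamini-Hochberg adjustment over all genes) was the main test. DESeq2 1.42.0, limma-voom (limma 3.58.1), other scalings and filters, no litter term, GC corrections, single litters and leaving out each embryo were alternatives. The standard error is the log2 fold change divided by the square root of F. CPM are TMM-scaled; correlations used log2 CPM with a prior count of 2. Correlations of embryos were tested by enumerating all 17280 arrangements within litters. All 10 members were named; of the pathway list, those called and then the smallest p up to 12, of which 1 is not reported here; and the 3 genes most like each of *Lmx1a*, *Gdf7*, *Id1* and *Id3*. The test was checked on simulated data. Total counts were 40949585 to 68928443 per embryo, and replicates differed by more than sampling noise in all 20 pairs within a group (chi-square per gene 8.59 or more). The p-values measure the spread between single embryos of 2 litters.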

Additional observations from a re-analysis of the deposited data

Results flagged for a closer look

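*Bmp7* was lower in all 3 *Dot1l*-cKO embryos of litter 1 and higher in both of litter 2 than in the controls of the same litter. The 2 log2 fold changes differed by 0.497 (SE 0.12), with an unadjusted p = 0.00137 and an adjusted p = 0.341 by edgeR, so the difference did not pass over all genes, 1646 of which had an unadjusted p under 0.05. It passed only without the expression filter. By Dixon's criterion, which compares the gap of the highest or lowest embryo with the range of its group of 5, no embryo passed for any of the 10 genes in the 20 groups examined. That includes *Dot1l*-cKO embryo 7 of litter 1, which lay among the controls for *Id1*, *Id3* and *Gdf7*. Each group held both litters, and a litter difference widens its range, so the criterion says little about a single embryo.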

How the results depend on the processing

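The number of all genes called between genotypes (591) was 2201 without an expression filter, 1492 with DESeq2, 384 with the GC correction and 97 with the GC difference of each embryo as a covariate (chosen after seeing the data); it ranged from 53 (without *Dot1l*-cKO embryo 6 of litter 2) to 1377 (without *Dot1l*-cKO embryo 7 of litter 1) when 1 embryo was left out. Without the litter term 0 were called by edgeR, with 1867 at an unadjusted p under 0.05. Of the 10 members 1 was called; there were 4 without a filter, 3 with DESeq2, 2 with library size only or with legacy = FALSE, and 0 with limma-voom, without the litter term or with the GC covariate, and 0 to 3 when 1 embryo was left out. With the robust edgeR fit the 1 called was *Gdf7* (adjusted p = 0.0485) and not *Id1* (0.0853). *Id1* kept a positive log2 fold change in all 22 fits over both litters, from 0.29 to 1.01. Leaving out 1 embryo ended its call for controls 4 and 9 of litter 1, both controls of litter 2, and *Dot1l*-cKO embryos 2 of litter 1 and 6 of litter 2, with adjusted p up to 0.0990. Of the pathway list 1 gene was called; 8 were without a filter, 6 with DESeq2, 6 in litter 2 alone, 2 with library size only, and 0 in litter 1 alone, without the litter term, with at least 10 counts in every embryo or with the GC covariate, and 0 to 6 when 1 embryo was left out. Without a filter 2 members were called in litter 1 and 1 (*Bmp7*) for the interaction. Centring on litter and genotype put 2 pairs of members under the threshold (*Id1* with *Id3*, *Bmp5* with *Bmp7*), by a permutation not exact for such values. Litter 1 alone called 0 pairs, with 6 embryos. *Bmp4* turned to small positive values with library size only (0.0094), without a filter (0.0045), without the litter term (0.012), with legacy = FALSE (0.0011) and in litter 2 alone (0.16), and ranged from -0.15 to 0.13 when 1 embryo was left out. *Bmp7* turned to 0.26 in litter 2 alone and ranged from -0.12 to 0.012, the latter without *Dot1l*-cKO embryo 7 of litter 1. With the GC covariate the values were -0.42 for *Bmp4*, -0.49 for *Bmp5*, -0.25 for *Bmp7* and 0.0032 for *Bmp6*, none of which passed (adjusted p 0.226 to 0.994). The causes were not tested. No paired analysis was possible because the embryo numbers are not shared between groups within a litter; the litter is in the model. *Gdf7* and *Bmp8a*, with 3 to 10 reads per control, are limited by depth.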
